A study of Mus musculus with 12 samples.

Results

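Livers of mice that carried the c-MET/β-catenin oncogenes and ate a low-protein diet were set against normal livers of mice on chow. The 2 groups differ in both diet and oncogenes, so the comparison gives the net distance of the low-protein oncogene liver from normal chow liver and cannot by itself tell the 2 factors apart. It was chosen by the groups in the sample labels and takes 6 of the 12 libraries of the study, 3 LPD c-MET/β-catenin and 3 CD Vec. Liver RNA was sequenced in bulk in 4 groups of 3 livers that crossed diet with oncogenes. All were young adult males, placed on chow (CD) or a low-protein diet (LPD) for 1 week before hydrodynamic tail vein injection and kept on it afterwards. The c-MET/β-catenin mice received Sleeping Beauty transposon plasmids, which insert into the genome of the hepatocytes that take them up, for human c-MET and a β-catenin without its N-terminal degradation region (ΔN90), both driven by the EF1α promoter. The Vec mice received the empty vector, and the labels call them WT. Livers of all groups were taken when the CD c-MET/β-catenin mice reached their end point. The injection reaches only some of the hepatocytes and the RNA came from frozen liver tissue, although the labels name hepatocytes as the cell type, so transfected cells, untransfected hepatocytes and other liver cells were measured together. In such bulk RNA, fewer cells of a type and less RNA per cell cannot be told apart.

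The liver clears the nitrogen of amino acids through the urea cycle around the portal vein and through glutamine synthetase in the last hepatocytes before the central vein, where β-catenin is active. Low dietary protein is known to lower the enzymes of urea synthesis and amino acid breakdown, and to raise genes of the amino acid response, which ATF4 drives when amino acids are short. Activated β-catenin switches on a pericentral programme, and joined with c-MET, the receptor of hepatocyte growth factor, it gives liver tumours in mice.

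The 6 libraries held between 19476209 and 26835788 counts assigned to genes, and levels are given in CPM, counts relative to the library size after scaling by the trimmed mean of M values (TMM), always in the order of livers 1, 2 and 3 of a group, numbered as the labels number the replicates. Summed hepatocyte markers (8 genes, with Alb, the gene of albumin, the most abundant) took 130602 to 133026 CPM in CD Vec and 90509 to 125012 CPM in LPD c-MET/β-catenin, and none of the 8 passed the test. One library stood apart: CD Vec liver 2 lay 0.759 to 0.791 from its 2 group mates, measured as the root mean square log2 CPM difference over 13947 genes, whereas livers 1 and 3 lay 0.555 from each other. Results are therefore also given without it where that moves them. The column names of the count table carry dataset numbers that fall into consecutive runs, with the 3 LPD c-MET/β-catenin libraries and CD Vec liver 3 in one run and CD Vec livers 1 and 2 in another. What these runs stand for is not given in the sources used here. The same column names mark the chow libraries HPD, the study's abbreviation for a high-protein diet used elsewhere in it, whereas their titles say chow, and the groups follow the titles. The mouse genes of both oncogenes did not pass the test. Met, the mouse counterpart of the transgene, measured 111, 63.1 and 106 CPM in CD Vec and 88.5, 81.4 and 77.4 CPM in LPD c-MET/β-catenin (log2 fold change −0.18, SE 0.20, adjusted p = 0.709). Ctnnb1, the β-catenin gene, measured 277, 221 and 264 CPM in CD Vec and 364, 333 and 286 CPM in LPD c-MET/β-catenin (log2 fold change 0.37, SE 0.15, adjusted p = 0.210). The 2 groups overlapped for Met, and for Ctnnb1 the LPD c-MET/β-catenin livers were the higher without overlap. The human c-MET transgene has no entry of its own in the count table. Whether any reads of the injected c-MET or β-catenin were counted under Met or Ctnnb1 was not tested.

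The net difference reached 657 of the 13947 genes tested (4.71%), with 370 higher (2.65%) and 287 lower (2.06%) in LPD c-MET/β-catenin than in CD Vec at an adjusted p under 0.05 in edgeR's quasi-likelihood test. Of these, 434 differed by at least 2-fold, 297 higher and 137 lower. The libraries of the 2 groups did not overlap in 3224 genes (23.1%), 1645 higher and 1579 lower. Scaling by total counts alone moved the median over all genes from −0.01 to 0.21 log2 units, and the share of higher genes among the calls from 56.3% to 84.4%. The number of calls rested on single libraries: it was 160 without LPD c-MET/β-catenin liver 2 and 322 without CD Vec liver 1, against 585 (243 higher, 342 lower) without CD Vec liver 2. The 287 lower genes became 44, 154 and 171 without LPD c-MET/β-catenin liver 2, 1 or 3, 148 and 182 without CD Vec liver 1 or 3, and 431 without CD c-MET/β-catenin liver 1. The 370 higher genes became 116 without LPD c-MET/β-catenin liver 2 and 174 without CD Vec liver 1. A set of 143 genes, 101 higher and 42 lower, was called whichever of the 12 libraries was left out, and for other genes the libraries without which a call was lost, each left out on its own, are given beside the gene or its list, as names, counts or the omissions that cost a list most calls. With the run of dataset numbers as a term in the model 51 genes were called (31 higher, 20 lower), and within the run that holds all 3 LPD c-MET/β-catenin libraries, where CD Vec has 1 library, 352 were called (88 higher, 264 lower). The 657 genes had the same sign in both of these fits, with median log2 differences of 1.57 and −0.93 under the run term beside 1.74 and −0.98 without it. Libraries of the 2 groups did not overlap in 368 of the 370 higher and in all 287 lower genes. The sign within the run was thus all but fixed in advance. Of the gene lists described here, those with a call under the run term were the β-catenin targets (6 higher), glutamine and ammonia handling and the interferon response (1 higher each), the urea cycle and the acute phase (1 lower each) and amino acid breakdown (1 in each direction).

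Measured over all genes tested, the LPD c-MET/β-catenin livers lay nearer to CD Vec than the CD c-MET/β-catenin livers did. The median of the 9 library-to-library distances was 0.782 (lowest 0.672, highest 0.983) from CD Vec to LPD c-MET/β-catenin, and 0.735 (0.672 to 0.786) over the 6 without CD Vec liver 2. It was 1.22 (1.06 to 1.43) from CD Vec to CD c-MET/β-catenin, and those 9 distances all exceeded the 9 of LPD c-MET/β-catenin. The distance from CD Vec to LPD Vec was 0.636 (0.515 to 0.797) and that from LPD Vec to LPD c-MET/β-catenin 0.670 (0.585 to 0.788). These distances share libraries and were given no test. The 9 distances from CD Vec to LPD c-MET/β-catenin overlapped with those inside CD Vec, where the 3 distances ran from 0.555 to 0.791, while the 3 inside LPD c-MET/β-catenin ran from 0.473 to 0.535. Without CD Vec liver 2 they did not overlap, with 0.555 between CD Vec livers 1 and 3 below all 6 remaining distances to LPD c-MET/β-catenin. The corresponding calls were 43 for diet in Vec livers (0.308%), 184 for the oncogenes on LPD (1.32%) and 4933 for the oncogenes on CD (35.4%).

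**Figure D1:**
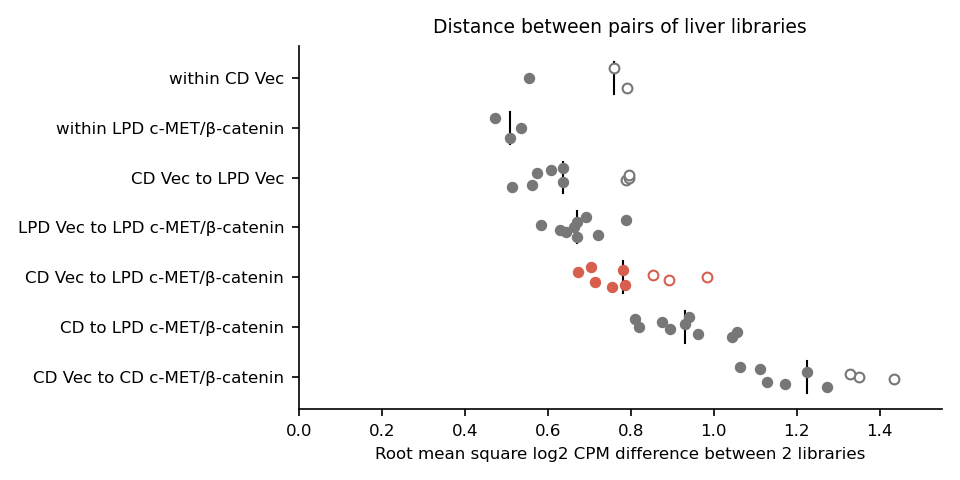
Root mean square log2 CPM difference (x axis, over 13947 genes) between pairs of liver libraries, 1 point a pair and a vertical bar at the median of each group pair (rows); open points are pairs with CD Vec liver 2. The 9 pairs of CD Vec with LPD c-MET/β-catenin (red) have a median of 0.782, between 0.636 for CD Vec with LPD Vec and 1.22 for CD Vec with CD c-MET/β-catenin.

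LPD Vec shares the vector with CD Vec and the diet with LPD c-MET/β-catenin, so each net difference can be written as the sum of a diet part (LPD Vec minus CD Vec) and an oncogene part (LPD c-MET/β-catenin minus LPD Vec). The 2 parts share the LPD Vec libraries, and each shares a group with the net difference that chose the genes, so they are given as descriptions. For the 370 higher genes the median net log2 difference was 1.74, the median diet part 0.32 and the median oncogene part 1.20. For the 287 lower genes the medians were −0.98 net, −0.58 for diet and −0.38 for the oncogenes. The same oncogenes on CD had median differences of 2.43 and −0.98 over these 370 and 287 genes. Raised genes therefore had the larger median in the oncogene part and lowered genes in the diet part.

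The 2 genes raised most, Sfrp2 and Dlk1, were near silent in both Vec groups. Sfrp2 (Entrez 20319, chromosome 3, 83765750 to 83774314 in GRCm38.p6, the build of all coordinates here), which encodes a secreted Wnt-binding protein, had 3, 0 and 1 counts in CD Vec, 4 in all, against 1897 counts in LPD c-MET/β-catenin, a ratio of 373 with an exact 95% counting interval of 145 to 1369. Its levels were 0.153, 0 and 0.0521 CPM in CD Vec and 32.2, 34.8 and 10.7 CPM in LPD c-MET/β-catenin, and LPD Vec held 0.144, 0.0845 and 0 CPM. Dlk1 (Entrez 13386, chromosome 12, 109452485 to 109463336), a fetal liver gene, had 0, 0 and 3 counts in CD Vec, 3 in all, against 737, a ratio of 193 with an exact 95% counting interval of 65.8 to 938. Dlk1 measured 0, 0 and 0.156 CPM in CD Vec and 16.4, 10.8 and 4.07 CPM in LPD c-MET/β-catenin, with 0, 0.127 and 0 CPM in LPD Vec. These intervals cover counting error only. In both genes every LPD c-MET/β-catenin library was far above every CD Vec library, with liver 3 the lowest of the 3. Genes named by size had to have no overlap between the 2 groups, so the separation itself was fixed by the choice.

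Car4, a membrane-bound carbonic anhydrase, measured 0.255, 0 and 0.312 CPM in CD Vec and 20.2, 23.4 and 11.3 CPM in LPD c-MET/β-catenin (log2 fold change 6.52, SE 0.80, adjusted p = 0.00187). Its level without oncogenes was low on both diets, with 0.240, 0 and 0 CPM in LPD Vec. Apcdd1, an inhibitor of Wnt signalling, measured 0.255, 0 and 0.260 CPM in CD Vec and 15.6, 7.12 and 8.35 CPM in LPD c-MET/β-catenin (log2 fold change 5.83, SE 0.61, adjusted p = 0.00118). Akr1c18, a steroid-reducing aldo-keto reductase, measured 1.99, 0.796 and 3.38 CPM in CD Vec and 85.9, 96.2 and 51.3 CPM in LPD c-MET/β-catenin (log2 fold change 5.23, SE 0.56, adjusted p = 0.00119). In each of these 3 genes every LPD c-MET/β-catenin library lay above every CD Vec library, as the choice by size required. The further genes named by size with a larger oncogene part were Dner, a Notch ligand (log2 6.10, adjusted p = 0.00159), Arnt2, a bHLH-PAS transcription factor (log2 5.83, adjusted p = 0.000877), and Bmp8b, a bone morphogenetic protein (log2 4.42, adjusted p = 0.00229). They also held Prokr2, the prokineticin receptor (log2 5.02, adjusted p = 0.00457), Elovl7, a fatty acid elongase (log2 4.55, adjusted p = 0.00119), Akr1b7, an aldose reductase family member (log2 5.35, adjusted p = 0.00699), and Cyp3a16, a cytochrome P450 (log2 4.25, adjusted p = 0.00901). Akr1c18, Akr1b7 and Cyp3a16 belong to families of similar genes whose reads the counting could have split, so their single-gene values are uncertain. These 10 genes stayed called whichever of the 12 libraries was omitted.

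Ighg1, an immunoglobulin heavy chain constant region made by plasma cells, was higher in this group than in both CD groups. It measured 0.408, 0.341 and 0.833 CPM in CD Vec and 9.19, 35.6 and 63.3 CPM in LPD c-MET/β-catenin (log2 fold change 6.07, SE 0.80, adjusted p = 0.00290), and 1.56, 0.734 and 0.337 CPM in CD c-MET/β-catenin. The difference between the 2 oncogene groups was log2 5.31 (SE 0.74, adjusted p = 0.00112). Of the parts of its net difference, that of the oncogenes was larger than that of diet. The 3 LPD c-MET/β-catenin livers themselves spread widely, with liver 1 lowest. Immunoglobulin constant regions are a family of similar genes, so the count may hold reads of others.

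Of the largest increases, Psat1 and Slc34a2 had a larger diet part, though the oncogenes on CD raised Psat1 too. Psat1 (Entrez 107272, chromosome 19, 15905123 to 15925059), which makes phosphoserine in serine synthesis, measured 2.19, 0.171 and 2.24 CPM in CD Vec and 18.1, 50.6 and 23.3 CPM in LPD c-MET/β-catenin (log2 fold change 4.30, SE 0.61, adjusted p = 0.00456). The LPD Vec livers reached similar levels, with 15.7, 27.9 and 26.6 CPM, and its parts were log2 3.91 for diet and 0.39 for the oncogenes. CD c-MET/β-catenin livers held 42.4, 47.7 and 29.7 CPM, a difference from CD Vec of log2 4.68 (SE 0.62, adjusted p = 0.000251). Slc34a2, a sodium-phosphate cotransporter, measured 0.357, 0.341 and 0.364 CPM in CD Vec and 8.89, 6.60 and 9.23 CPM in LPD c-MET/β-catenin (log2 fold change 4.52, SE 0.76, adjusted p = 0.00928). The highest liver was one of LPD Vec (6.19, 12.5 and 42.2 CPM), where the diet difference was log2 5.82 (SE 0.77, adjusted p = 0.0157). Cyp2c69, a cytochrome P450 of a family of near copies, was named for the size of its diet part, not of its net difference. Its net difference was log2 3.28 (adjusted p = 0.00894), with parts of log2 3.53 for diet and −0.26 for the oncogenes. The oncogenes on CD gave log2 5.31 (SE 0.57, adjusted p = 7.90e-05) for it. The LPD c-MET/β-catenin and LPD Vec libraries overlapped in all 3 genes.

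The genes lowered most leaned to the diet part. Lrtm1, a leucine-rich repeat membrane protein, measured 24.9, 18.1 and 42.2 CPM in CD Vec and 0.489, 0.0351 and 0.394 CPM in LPD c-MET/β-catenin (log2 fold change −6.60, SE 1.0, adjusted p = 0.00561), with parts of log2 −3.77 for diet and −2.83 for the oncogenes. The oncogenes on CD gave log2 −4.95 (SE 0.87, adjusted p = 0.00134) for it. Nnmt, which methylates nicotinamide with S-adenosylmethionine, measured 11, 24 and 37.8 CPM in CD Vec and 1.17, 0.386 and 0.656 CPM in LPD c-MET/β-catenin (log2 fold change −5.07, SE 0.98, adjusted p = 0.0160). Its parts were log2 −4.11 for diet and −0.96 for the oncogenes, and LPD Vec held 2.69, 0.718 and 0.821 CPM. Both genes fell in every LPD c-MET/β-catenin library below every CD Vec library, as the choice by size required. Hamp2, a paralog of the iron hormone hepcidin, measured 156, 22.7 and 35.5 CPM in CD Vec and 1.27, 3.33 and 2.76 CPM in LPD c-MET/β-catenin (log2 fold change −4.84, SE 0.87, adjusted p = 0.0126), and its reads may be shared with Hamp. Upp2, a uridine phosphorylase of pyrimidine breakdown, measured 335, 414 and 753 CPM in CD Vec and 63.9, 45.1 and 85.2 CPM in LPD c-MET/β-catenin (log2 fold change −2.95, SE 0.58, adjusted p = 0.0163). The call of Nnmt (adjusted p from 0.0515 to 0.0920) was not made without LPD c-MET/β-catenin liver 2 or 3. The call of Hamp2 (adjusted p = 0.0588) was not made without LPD c-MET/β-catenin liver 2. The call of Upp2 (adjusted p from 0.0534 to 0.0852) was not made without LPD c-MET/β-catenin liver 1 or 2.

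Slco1a4, an organic anion transporter of the hepatocyte, measured 67.5, 40.9 and 31 CPM in CD Vec and 5.23, 6.81 and 4.90 CPM in LPD c-MET/β-catenin (log2 fold change −3.04, SE 0.36, adjusted p = 0.00159). Akr1d1, the 5β-reductase of bile acid and steroid synthesis, measured 175, 146 and 157 CPM in CD Vec and 26.4, 20.6 and 44 CPM in LPD c-MET/β-catenin (log2 fold change −2.39, SE 0.37, adjusted p = 0.00593). Of the 15 genes lowered most, Akr1d1 was the 1 with a called oncogene part, log2 −1.70 (SE 0.37, adjusted p = 0.0476). Agxt, which detoxifies glyoxylate in peroxisomes, measured 156, 284 and 249.7 CPM in CD Vec and 48.8, 10.8 and 43.4 CPM in LPD c-MET/β-catenin (log2 fold change −2.75, SE 0.51, adjusted p = 0.0136). In all 3 genes the highest LPD c-MET/β-catenin library lay well under the lowest CD Vec library, where the choice by size required no overlap. Of the other lowered genes named by size, Dct, a melanin-related tautomerase (log2 −3.48, adjusted p = 0.00550), Snhg11, a small nucleolar RNA host gene (log2 −2.64, adjusted p = 0.0106), Mpv17l, a mitochondrial and peroxisomal membrane protein (log2 −2.53, adjusted p = 0.00179), and Slc43a1, a transporter of neutral amino acids (log2 −2.33, adjusted p = 0.00457), were called in every fit that left out a library. Ren1, renin (log2 −5.50, adjusted p = 0.0194), Zap70, a T cell kinase (log2 −2.68, adjusted p = 0.0131), Dsg1c, a desmosomal cadherin (log2 −2.63, adjusted p = 0.0116), and Sucnr1, the succinate receptor (log2 −2.34, adjusted p = 0.0459), were not. The call of Ren1 (adjusted p from 0.0639 to 0.102) was not made without LPD c-MET/β-catenin liver 1 or 2. The calls of Zap70 (adjusted p = 0.0765) and Dsg1c (adjusted p = 0.0690) were not made without LPD c-MET/β-catenin liver 2. The call of Sucnr1 (adjusted p from 0.0614 to 0.181) was not made without CD c-MET/β-catenin liver 2, CD Vec liver 1 or 3, LPD c-MET/β-catenin liver 2 or 3 or LPD Vec liver 1, 2 or 3.

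**Figure D2:**
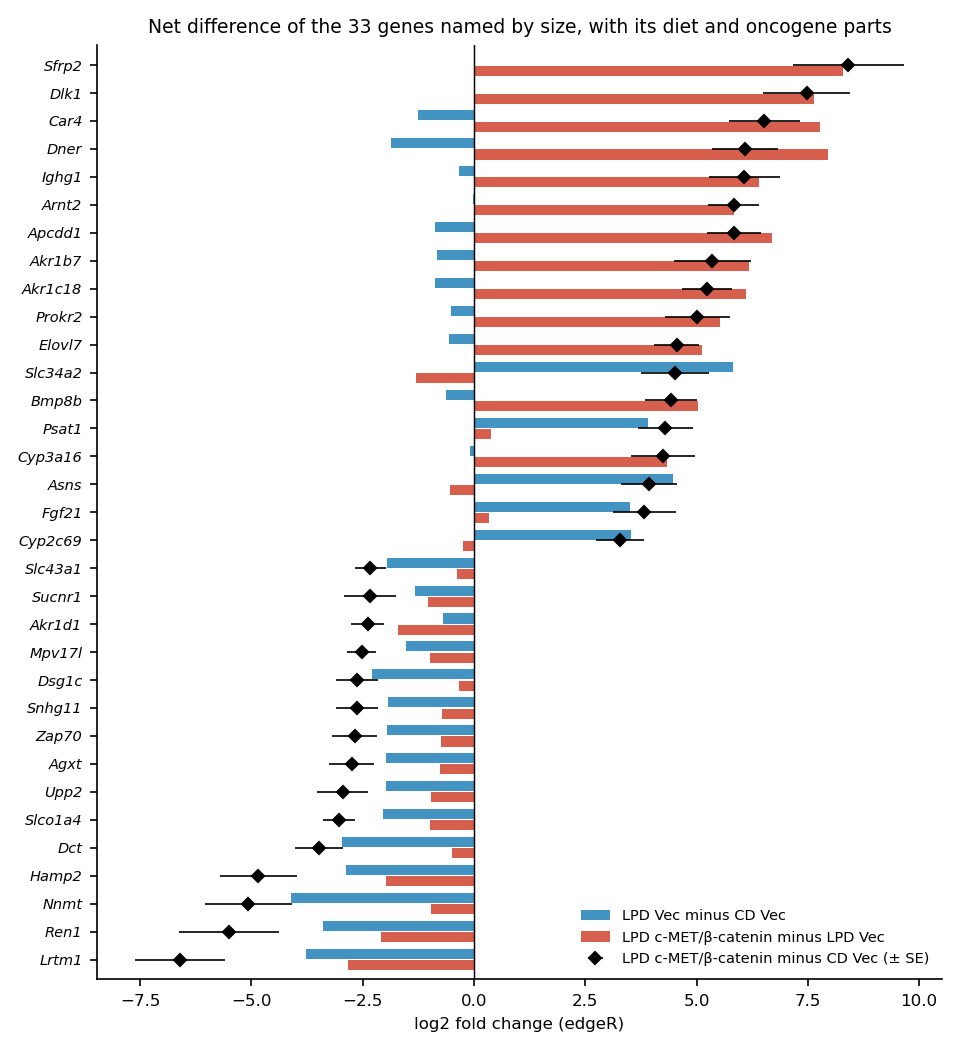
Net log2 fold change of LPD c-MET/β-catenin against CD Vec (diamonds, with SE) for the 33 genes named by size, with the diet part (blue bars) and the oncogene part (red bars), which add up to it; Sfrp2 and Dlk1 have no diet bar because neither Vec group exceeds 3 counts in any library. The oncogene part carries most of the increases, Slc34a2, Psat1, Asns, Fgf21 and Cyp2c69 excepted, and the diet part is the longer bar in every decrease but that of Akr1d1. Asns, Fgf21 and Cyp2c69 are shown because they were chosen for a large diet part.

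**Figure D3:**
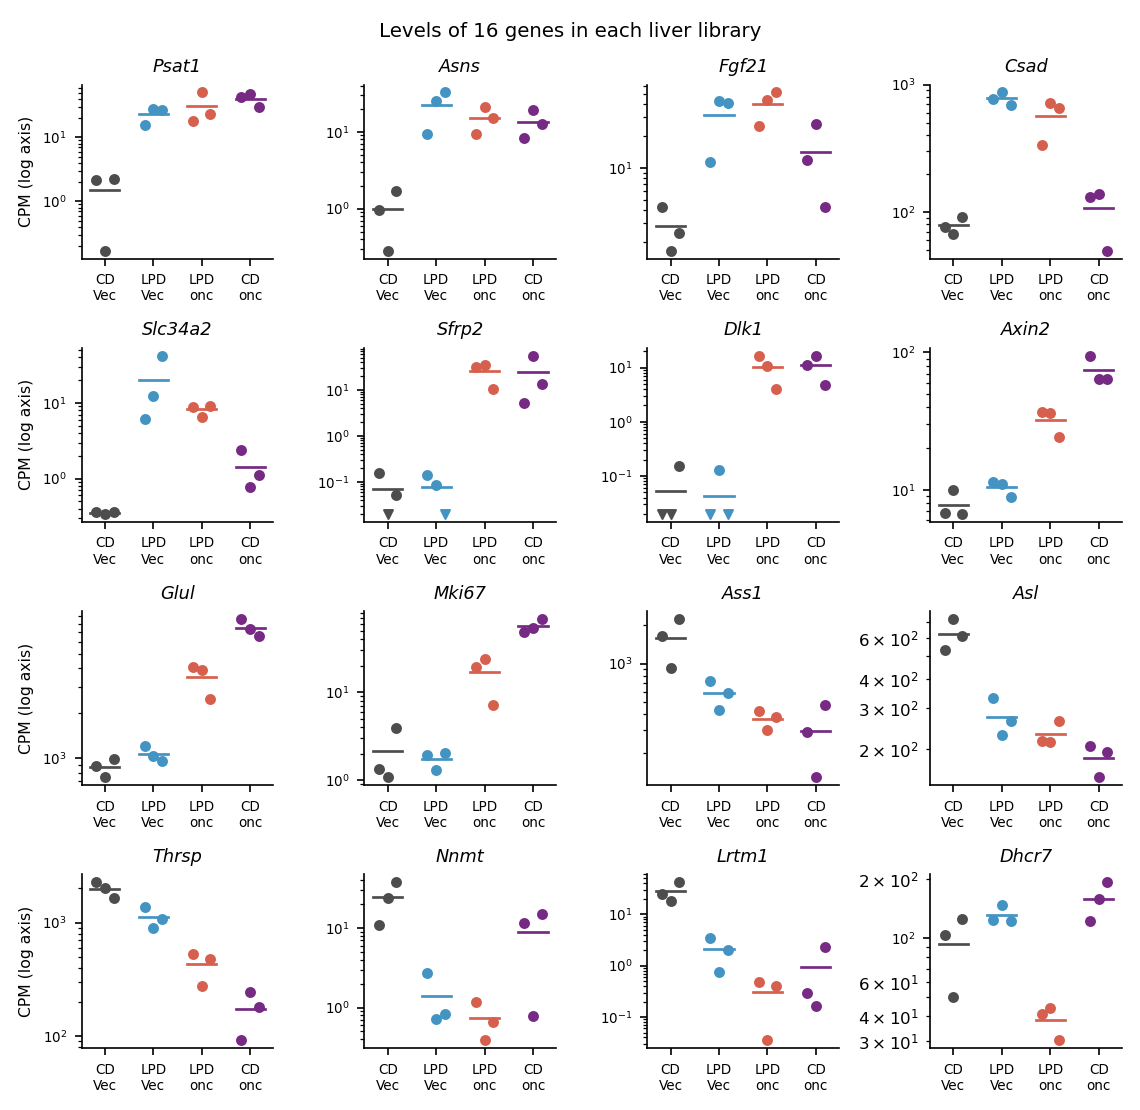
CPM (y axes, log scale, different for each gene) of 16 genes in the 3 libraries of each group, with a horizontal bar at the mean; onc stands for c-MET/β-catenin and triangles mark libraries with 0 counts, drawn at the foot of the axis. Csad is high in the 2 LPD groups, and Sfrp2 and Dlk1 are high in both oncogene groups. Psat1 and Asns are lower in every CD Vec library than in any library of the other 3 groups. Glul and Axin2 in LPD c-MET/β-catenin lie between the Vec groups and CD c-MET/β-catenin.

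Genes of the amino acid response were higher in LPD c-MET/β-catenin in 21 of 22 fitted differences, with fewer calls. Of 22 members tested, 10 rose and 1 fell (2.65% and 2.06% of all genes), with a median log2 difference of 1.31 beside −0.01 for all genes, and the libraries did not overlap upwards in 16 (11.8% of all genes). The list was chosen with earlier results of these data known. Levels of its leading members are given after 3 of their promoters, which are shown because ATF4 acts on genes of this list through composite C/EBP-ATF elements that hold the letters TGATGNAA. In the RefSeq windows of GRCm38.p6, from 250 bases before to 50 bases after a gene's start, 8 of the 22 members with a window held TGATGNAA on either strand, against 4.51% of the 27025 genes with a window. Of the 10 raised members 9 had a window and 5 of these held it. The stretch from chr6:7693160-7693459 is the Asns window, that from chr7:45615441-45615740 the Fgf21 window and that from chr7:126625421-126625720 the Nupr1 window, all on the minus strand and written 5′ to 3′ with capitals on the match. The match starts 23 bases before the start of Asns and reads along the gene, and it lies 139 bases before the start of Fgf21 and 110 before that of Nupr1, on the opposite strand. A match of letters does not show binding.
Asns: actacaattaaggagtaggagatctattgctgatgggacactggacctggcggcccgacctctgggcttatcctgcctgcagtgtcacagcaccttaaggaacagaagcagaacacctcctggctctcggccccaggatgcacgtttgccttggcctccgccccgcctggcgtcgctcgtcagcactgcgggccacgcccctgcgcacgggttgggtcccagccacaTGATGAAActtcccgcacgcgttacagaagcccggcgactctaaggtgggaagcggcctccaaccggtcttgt
Fgf21: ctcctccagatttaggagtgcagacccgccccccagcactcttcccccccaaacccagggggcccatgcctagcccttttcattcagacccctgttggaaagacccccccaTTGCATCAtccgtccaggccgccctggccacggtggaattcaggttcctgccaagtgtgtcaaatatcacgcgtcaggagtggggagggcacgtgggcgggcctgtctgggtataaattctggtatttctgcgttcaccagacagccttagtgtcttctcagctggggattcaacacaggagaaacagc
Nupr1: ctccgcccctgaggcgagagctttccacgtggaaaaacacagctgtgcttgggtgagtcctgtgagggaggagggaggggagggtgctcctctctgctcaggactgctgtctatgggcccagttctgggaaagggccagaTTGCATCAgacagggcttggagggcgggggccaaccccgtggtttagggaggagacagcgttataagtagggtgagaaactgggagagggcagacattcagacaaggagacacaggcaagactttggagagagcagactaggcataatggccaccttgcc

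Asns (Entrez 27053, chromosome 6, 7675165 to 7693209), asparagine synthetase, measured 0.968, 0.284 and 1.72 CPM in CD Vec and 9.43, 21.2 and 15.3 CPM in LPD c-MET/β-catenin (log2 fold change 3.93, SE 0.62, adjusted p = 0.00694). Fgf21 (Entrez 56636, chromosome 7, 45613890 to 45615490), the liver hormone of protein restriction, measured 4.28, 1.65 and 2.45 CPM in CD Vec and 24.6, 43.6 and 51.7 CPM in LPD c-MET/β-catenin (log2 fold change 3.83, SE 0.71, adjusted p = 0.0138). Nupr1 (Entrez 56312, chromosome 7, 126623246 to 126625470), a stress-induced chromatin protein, measured 0.509, 0.569 and 0.364 CPM in CD Vec and 2.49, 12.2 and 4.68 CPM in LPD c-MET/β-catenin (log2 fold change 3.74, SE 0.57, adjusted p = 0.00496). No LPD c-MET/β-catenin library overlapped with CD Vec in any of the 3, which the choice by diet part required of Asns and Fgf21. CD Vec liver 2 was the lowest library for Asns and Fgf21, and without it the adjusted p was 0.0248 for Asns and 0.0499 for Fgf21. The parts separated these genes: for Asns they were log2 4.48 for diet and −0.55 for the oncogenes, for Fgf21 log2 3.50 for diet and 0.33 for the oncogenes and for Nupr1 log2 1.90 for diet and 1.84 for the oncogenes. On CD, the oncogenes gave log2 3.73 (SE 0.62, adjusted p = 0.000942) for Asns, log2 2.32 (SE 0.69, adjusted p = 0.0224) for Fgf21 and log2 3.43 (SE 0.57, adjusted p = 0.000772) for Nupr1. In that comparison, which shares the CD Vec libraries, 16 of the list's 22 members were higher (18.7% of all genes), with a log2 median of 2.16. Atf5, a transcription factor of the same response, measured 319.5, 197 and 295 CPM in CD Vec and 604, 673 and 644 CPM in LPD c-MET/β-catenin (log2 fold change 1.24, SE 0.18, adjusted p = 0.00454).

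Mthfd2, of mitochondrial one-carbon metabolism (log2 2.46, adjusted p = 0.0110), Trib3, a pseudokinase induced by ATF4 (log2 1.52, adjusted p = 0.0187), Sesn2, a leucine sensor of the mTORC1 pathway (log2 1.01, adjusted p = 0.0309), and Slc7a5, the large neutral amino acid transporter (log2 1.37, adjusted p = 0.0387), also rose on the log2 scale. Slc7a11, the cystine transporter, had 4 counts in CD Vec against 47, a ratio of 9.23 with an exact 95% counting interval of 3.37 to 35.3, and an adjusted p of 0.0221. Shmt2, the mitochondrial serine hydroxymethyltransferase, went the other way, with 272, 306 and 292 CPM in CD Vec and 186, 181 and 195 CPM in LPD c-MET/β-catenin (log2 fold change −0.63, SE 0.13, adjusted p = 0.0189). Phgdh, the first enzyme of serine synthesis, had a log2 difference of 3.43 and missed the threshold (adjusted p = 0.0513). Without LPD c-MET/β-catenin liver 2 the list had 4 raised members and 0 lowered, without CD Vec liver 2 it had 8 and 1, and with the run term none was called. The calls of Fgf21 (adjusted p = 0.0506) and Mthfd2 (adjusted p = 0.0501) were not made without LPD c-MET/β-catenin liver 2. The call of Trib3 (adjusted p from 0.0507 to 0.0859) was not made without CD Vec liver 1, 2 or 3 or LPD c-MET/β-catenin liver 2. The call of Sesn2 (adjusted p from 0.0535 to 0.129) was not made without CD Vec liver 2 or 3, LPD c-MET/β-catenin liver 1 or 2 or LPD Vec liver 2. The call of Slc7a5 (adjusted p from 0.0591 to 0.166) was not made without CD Vec liver 1 or 2, LPD c-MET/β-catenin liver 1 or 2 or LPD Vec liver 1 or 2. The call of Slc7a11 (adjusted p from 0.0605 to 0.106) was not made without CD Vec liver 1 or LPD c-MET/β-catenin liver 2. The call of Shmt2 (adjusted p from 0.0594 to 0.0965) was not made without LPD c-MET/β-catenin liver 1 or 2.

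Several of the cytosolic aminoacyl-tRNA synthetases, which load amino acids onto tRNAs, are ATF4 targets. Of 20 tested, 4 rose and 0 fell (2.65% and 2.06% of all genes), with a median log2 difference of 0.21. The raised members were Gars for glycine (log2 0.82, adjusted p = 0.0134), Cars for cysteine (log2 0.76, adjusted p = 0.0120), Iars for isoleucine (log2 0.51, adjusted p = 0.0459) and Yars for tyrosine (log2 0.48, adjusted p = 0.0498). None of the 4 was called without LPD c-MET/β-catenin liver 2, where adjusted p ran from 0.0664 to 0.225. Cars and Gars kept it in the other 11 fits, and the calls of Iars and Yars were lost in 10 and 11 of the 12, each CD Vec library among them.

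Enzymes of amino acid breakdown were mostly lower, with 27 of 29 fitted differences below 0. Of 29 tested, 15 fell and 1 rose, against 2.06% and 2.65% of all genes, and the median log2 difference was −0.79. The libraries did not overlap downwards in 22 of them (11.3% of all genes). Their median diet part was −0.48 and their median oncogene part −0.32, beside −1.13 for the oncogenes on CD. Hpd, of tyrosine breakdown, measured 1609.8, 2389 and 2015 CPM in CD Vec and 873, 506 and 796 CPM in LPD c-MET/β-catenin (log2 fold change −1.47, SE 0.29, adjusted p = 0.0155). Prodh, proline dehydrogenase, measured 204, 264 and 298 CPM in CD Vec and 117, 85.3 and 119 CPM in LPD c-MET/β-catenin (log2 fold change −1.26, SE 0.21, adjusted p = 0.00706). Aass, of lysine breakdown, measured 269.7, 347 and 338 CPM in CD Vec and 154, 98.6 and 136 CPM in LPD c-MET/β-catenin (log2 fold change −1.29, SE 0.23, adjusted p = 0.0107). Every LPD c-MET/β-catenin liver was under every CD Vec liver in these genes, with liver 2 the lowest for Hpd.

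Of the lowered members, Gnmt, which spends S-adenosylmethionine on glycine, fell by 1.64 on the log2 scale (adjusted p = 0.0338), Ahcy, S-adenosylhomocysteine hydrolase, by 1.23 (adjusted p = 0.0134), Mat1a, which makes S-adenosylmethionine, by 0.79 (adjusted p = 0.0324), and Cth, cystathionine γ-lyase, by 1.57 (adjusted p = 0.0334). The other lowered members were Agxt and Tat, Fah, Ftcd, Bckdhb, Gcdh, Haao and Aldh4a1, of the breakdown of tyrosine, histidine, branched-chain amino acids, lysine, tryptophan and proline, with log2 differences from −1.38 to −0.63 in those not yet given. Without LPD c-MET/β-catenin liver 2 the lowered members numbered 2, Prodh and Agxt, without CD Vec liver 1 there were 8, without CD Vec liver 3 there were 9 and with the run term 1. Adjusted p without LPD c-MET/β-catenin liver 2 was 0.0807 for Hpd and 0.0590 for Aass.

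Csad (Entrez 246277, chromosome 15, 102176997 to 102205052), cysteine sulfinate decarboxylase of taurine synthesis, was the 1 member that rose. It measured 76.1, 67.4 and 91.4 CPM in CD Vec and 334, 710.1 and 653 CPM in LPD c-MET/β-catenin (log2 fold change 2.85, SE 0.38, adjusted p = 0.00249). LPD Vec livers held 773, 867 and 695 CPM and CD c-MET/β-catenin livers 132, 139 and 49.6 CPM, with a difference between the 2 oncogene groups of log2 2.40 (SE 0.37, adjusted p = 0.00161). Each of the 6 LPD libraries was above each of the 6 CD libraries.

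The urea cycle was lower in LPD c-MET/β-catenin than in normal chow liver. All 8 genes had non-overlapping libraries, lower in LPD c-MET/β-catenin (11.3% of all genes), 3 of them passed the test (2.06%) and the median log2 difference was −1.04. Asl (Entrez 109900, chromosome 5, 130011258 to 130024381), argininosuccinate lyase, measured 532, 720.4 and 607 CPM in CD Vec and 218, 214 and 264 CPM in LPD c-MET/β-catenin (log2 fold change −1.42, SE 0.18, adjusted p = 0.00201). Its diet part was log2 −1.17 (SE 0.18, adjusted p = 0.0262) and its oncogene part log2 −0.25 (SE 0.18, adjusted p = 0.713), while the oncogenes on CD gave log2 −1.75 (SE 0.18, adjusted p = 5.36e-05). Asl thus passed the test in both comparisons with CD Vec that change 1 factor. Ass1 (Entrez 11898, chromosome 2, 31470270 to 31520670), argininosuccinate synthase, measured 1641, 921 and 2243 CPM in CD Vec and 427, 301 and 381 CPM in LPD c-MET/β-catenin (log2 fold change −2.12, SE 0.44, adjusted p = 0.0193). Slc25a15, the mitochondrial ornithine transporter, measured 355, 308 and 371 CPM in CD Vec and 226, 156 and 186 CPM in LPD c-MET/β-catenin (log2 fold change −0.87, SE 0.19, adjusted p = 0.0252). Asl was called in each fit that left out a library. The calls of Ass1 (adjusted p from 0.0537 to 0.102) and Slc25a15 (adjusted p from 0.0712 to 0.128) were not made without CD Vec liver 1 or 3 or LPD c-MET/β-catenin liver 2 or 3.

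Other urea cycle genes did not pass the test. Cps1, which fixes ammonia, had a log2 difference of −1.56 (adjusted p = 0.0803), Otc, ornithine transcarbamylase, −1.21 (adjusted p = 0.0566), Slc25a13, the aspartate-glutamate carrier, −0.55 (adjusted p = 0.110), and Nags, which makes the activator of Cps1, −0.25 (adjusted p = 0.589). Set against CD c-MET/β-catenin the order of Cps1 turned: it was higher in LPD c-MET/β-catenin, by log2 1.54 (SE 0.46, adjusted p = 0.0337), and so was Otc, by log2 1.47 (SE 0.33, adjusted p = 0.00940). These 2 transcripts in LPD c-MET/β-catenin therefore lay between those of CD Vec and CD c-MET/β-catenin in their group means.

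Glutamine and ammonia handling changed in both directions. Of 15 genes 5 rose and 3 fell (2.65% and 2.06% of all genes), with a log2 median of 0.20, and with the run term 1 was called higher and 0 lower. Glul (Entrez 14645, chromosome 1, 153899929 to 153909723), glutamine synthetase and a β-catenin target, measured 888, 745 and 994 CPM in CD Vec and 4112, 3889 and 2490.1 CPM in LPD c-MET/β-catenin (log2 fold change 2.0, SE 0.21, adjusted p = 0.00118). Every LPD c-MET/β-catenin liver was above every CD Vec liver, with liver 3 the lowest, and under every CD c-MET/β-catenin liver (8611, 7323 and 6637 CPM). Its oncogene part was log2 1.71 (SE 0.21, adjusted p = 0.00241). Rhbg, an ammonia channel of pericentral hepatocytes (log2 2.10, adjusted p = 0.00729), and Slc1a2, a glutamate transporter of the same cells (log2 1.68, adjusted p = 0.00503), rose with it. Slc1a4, a transporter of neutral amino acids (log2 1.98, adjusted p = 0.0340), and Aldh18a1, of proline synthesis (log2 2.09, adjusted p = 0.0253), rose as well, Aldh18a1 with parts of log2 2.39 for diet and −0.30 for the oncogenes and a difference on CD of log2 2.81 (SE 0.46, adjusted p = 0.000772). The lowered genes were Gpt, alanine aminotransferase (log2 −1.09, adjusted p = 0.00729), Slc38a3, the glutamine transporter SNAT3 (log2 −1.13, adjusted p = 0.0189), and Got1, the cytosolic aspartate aminotransferase (log2 −2.0, adjusted p = 0.0418). Glul, Rhbg, Slc1a2 and Gpt kept the call in every fit without a library. The call of Slc1a4 (adjusted p from 0.0512 to 0.128) was not made without CD Vec liver 1, LPD c-MET/β-catenin liver 1 or 2 or LPD Vec liver 1, 2 or 3. The call of Aldh18a1 (adjusted p from 0.0709 to 0.107) was not made without CD Vec liver 1 or 2 or LPD c-MET/β-catenin liver 2. The call of Slc38a3 (adjusted p from 0.0559 to 0.102) was not made without CD Vec liver 1 or 3 or LPD c-MET/β-catenin liver 1 or 2. That of Got1 was lost in 10 of the 12.

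Targets of β-catenin were raised in the low-protein oncogene livers. Of 17 targets 11 rose and 0 fell (2.65% and 2.06% of all genes), the log2 median was 1.14, and 6 were called with the run term. Without CD Vec liver 2, 11 were called, and without LPD c-MET/β-catenin liver 2, the lowest of the 12 fits, 7. Axin2 (Entrez 12006, chromosome 11, 108917828 to 108950783), a feedback inhibitor of the pathway, measured 6.72, 9.95 and 6.66 CPM in CD Vec and 37.1, 36.3 and 24.1 CPM in LPD c-MET/β-catenin (log2 fold change 2.06, SE 0.23, adjusted p = 0.00119). Lef1, a DNA-binding partner of β-catenin, measured 0.204, 0.114 and 0.260 CPM in CD Vec and 3.81, 4.0 and 2.23 CPM in LPD c-MET/β-catenin (log2 fold change 4.07, SE 0.44, adjusted p = 0.00118). Nkd1, another feedback inhibitor, measured 5.09, 4.04 and 6.25 CPM in CD Vec and 74.6, 51.8 and 36.4 CPM in LPD c-MET/β-catenin (log2 fold change 3.40, SE 0.38, adjusted p = 0.00143). The groups were far apart in each, and LPD c-MET/β-catenin liver 3 was again the lowest of its group. Sp5 (log2 1.74, adjusted p = 0.00829), Tcf7 (log2 1.52, adjusted p = 0.00191), both transcription factors, and Slc13a3, a dicarboxylate transporter (log2 2.14, adjusted p = 0.00119), also rose, with calls that held whichever library was left out. The parts of Tcf7 were log2 1.28 for diet and 0.24 for the oncogenes. Lgr5, the R-spondin receptor (log2 1.99, adjusted p = 0.0446), Notum, a Wnt deacylase (log2 1.14, adjusted p = 0.0143), Lect2, a secreted hepatocyte protein (log2 0.98, adjusted p = 0.0410), and Znrf3, a ligase that removes Wnt receptors (log2 0.73, adjusted p = 0.0106), rose as well, Notum with parts of log2 0.69 for diet and 0.45 for the oncogenes and Lgr5 with parts of log2 1.01 for diet and 0.98 for the oncogenes. Over the list the median diet part was 0.28 and the median oncogene part 0.87. The call of Notum (adjusted p from 0.0565 to 0.0572) was not made without CD Vec liver 1 or LPD c-MET/β-catenin liver 2. The call of Znrf3 (adjusted p = 0.0501) was not made without LPD c-MET/β-catenin liver 2. The call was lost in 8 of the 12 fits for Lect2 and in 11 for Lgr5. The levels of Axin2 on CD were higher still (94.8, 64.2 and 64.2 CPM), and the difference from LPD c-MET/β-catenin was log2 −1.20 (SE 0.22, adjusted p = 0.00366).

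Not every pericentral gene was called. Cyp2e1, a cytochrome P450 of pericentral hepatocytes, measured 5783, 11274 and 6977 CPM in CD Vec and 5555, 4284 and 5513 CPM in LPD c-MET/β-catenin and did not pass (log2 −0.65, adjusted p = 0.279). Periportal genes were mostly without a call (2.65% of all genes rose and 2.06% fell): of 12, 1 rose, Cdh1, E-cadherin (log2 1.65, adjusted p = 0.0214), and 1 fell, Aldh1b1, a mitochondrial aldehyde dehydrogenase (log2 −2.29, adjusted p = 0.0227), with a log2 median of −0.75. The call of Cdh1 (adjusted p from 0.0642 to 0.0829) was not made without CD Vec liver 1 or 2 or LPD c-MET/β-catenin liver 1 or 2. The call of Aldh1b1 (adjusted p from 0.0715 to 0.112) was not made without CD Vec liver 1 or LPD c-MET/β-catenin liver 2 or 3. Cyp2f2, a periportal cytochrome P450, measured 1177, 1509.9 and 1367 CPM in CD Vec and 1199.7, 961 and 1032 CPM in LPD c-MET/β-catenin (log2 fold change −0.34, SE 0.20, adjusted p = 0.410). CD c-MET/β-catenin livers held 57.2, 48.6 and 87.8 CPM, and LPD c-MET/β-catenin exceeded them by log2 4.04 (SE 0.23, adjusted p = 8.58e-06).

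Genes of mitosis were raised over normal liver, whereas the DNA replication list held no raised gene. Of 21 mitotic genes 12 rose and 0 fell (2.65% and 2.06% of all genes), with a log2 median of 2.11 and 16 non-overlapping upwards (11.8% of all genes). Mki67, the proliferation marker Ki-67, measured 1.32, 1.08 and 3.96 CPM in CD Vec and 19.6, 24 and 7.08 CPM in LPD c-MET/β-catenin (log2 fold change 2.99, SE 0.51, adjusted p = 0.00992). Tpx2, a spindle assembly factor, measured 0.306, 0.341 and 0.781 CPM in CD Vec and 4.69, 6.11 and 2.14 CPM in LPD c-MET/β-catenin (log2 fold change 3.16, SE 0.45, adjusted p = 0.00385). Cenpe, a kinetochore motor, measured 0.255, 0.114 and 0.677 CPM in CD Vec and 3.52, 3.23 and 1.44 CPM in LPD c-MET/β-catenin (log2 fold change 2.93, SE 0.52, adjusted p = 0.0100). LPD c-MET/β-catenin liver 3 had the lowest level of the 3 in these genes and still exceeded every CD Vec library. Mki67, Tpx2 and Cenpe kept the call in each fit that left out a library. The count on the list was 3 without CD Vec liver 1, 3 without LPD c-MET/β-catenin liver 2, 8 without CD Vec liver 2 and 0 with the run term, where the median was 1.69. The diet part of the list had a log2 median of −0.19 and the oncogene part of 2.31. The oncogenes on CD had a log2 median of 4.19, with 21 of 21 called higher (18.7% of all genes).

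Of 22 DNA replication genes 0 rose and 1 fell (2.65% and 2.06% of all genes), with a log2 median of −0.07. The lowered gene was Tk1, thymidine kinase 1, with 17.9, 34.3 and 33.6 CPM in CD Vec and 12.3, 10.3 and 14.9 CPM in LPD c-MET/β-catenin (log2 fold change −1.20, SE 0.30, adjusted p = 0.0443), and its call was lost in 9 of the 12 fits without a library, CD Vec livers 2 and 3 and all 3 LPD c-MET/β-catenin libraries among them (adjusted p up to 0.194). In pyrimidine metabolism, 3 of 13 genes fell (2.06% of all genes) and 0 rose, with a log2 median of −0.18 and 0 called with the run term. The lowered genes were Upp2, Dpyd, dihydropyrimidine dehydrogenase (log2 −0.95, adjusted p = 0.0221), and Upb1, β-ureidopropionase (log2 −0.92, adjusted p = 0.0158), which act in the breakdown of uracil and its nucleoside. Umps, of pyrimidine synthesis (log2 −0.41, adjusted p = 0.315), did not pass. Without LPD c-MET/β-catenin liver 1 or 2 none of the 3 was called, and the call of Dpyd was also lost without CD Vec liver 1 or 3 or LPD c-MET/β-catenin liver 3 (adjusted p from 0.0511 to 0.116).

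Targets of p53 rose in 4 of 12 cases and fell in 0 (2.65% and 2.06% of all genes), with a log2 median of 0.71, and 0 were called with the run term. Phlda3, an inhibitor of AKT (log2 2.26, adjusted p = 0.00538), and Psrc1, a microtubule-binding protein (log2 3.38, adjusted p = 0.00465), were called whichever library was left out. Eda2r, a receptor of ectodysplasin A2 (log2 2.35, adjusted p = 0.0244), and Bax, which permeabilises mitochondria (log2 0.72, adjusted p = 0.0147), rose as well. The call of Eda2r (adjusted p from 0.0536 to 0.111) was not made without CD Vec liver 1 or 2 or LPD c-MET/β-catenin liver 2. The call of Bax (adjusted p from 0.0556 to 0.0807) was not made without CD Vec liver 1 or LPD c-MET/β-catenin liver 2. Cdkn1a, the cell cycle inhibitor p21, measured 2.39, 1.31 and 6.98 CPM in CD Vec and 17, 30.1 and 16.7 CPM in LPD c-MET/β-catenin (log2 fold change 2.57, SE 0.85, adjusted p = 0.121). Of 12 targets of Nrf2 2 rose (2.65% of all genes), Akr1b7 and Gstm3, a glutathione transferase (log2 2.51, adjusted p = 0.0252), the latter with a call lost without CD Vec liver 1 or 2 or LPD c-MET/β-catenin liver 2 (adjusted p from 0.0715 to 0.100).

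Genes of fatty acid synthesis were lower in median than all genes, with few calls. Of 20 genes of fatty acid and triglyceride synthesis 1 fell and 0 rose (2.06% and 2.65% of all genes), with a log2 median of −0.97. Thrsp (Entrez 21835, chromosome 7, 97412933 to 97417550), a lipogenic regulator, measured 2267, 2029 and 1656 CPM in CD Vec and 533, 276 and 475 CPM in LPD c-MET/β-catenin (log2 fold change −2.21, SE 0.35, adjusted p = 0.00576), with parts of log2 −0.83 for diet and −1.38 for the oncogenes. It separated the groups in every library and was called in each fit that left one out. Fasn, fatty acid synthase, measured 2901, 330.0 and 734 CPM in CD Vec and 386, 469 and 279.7 CPM in LPD c-MET/β-catenin (log2 −1.81, adjusted p = 0.152), and the low CD Vec liver 2 put the groups in overlap. Without CD Vec liver 2, 6 genes of this list fell, beside 342 of the 14275 genes tested in that fit, and the adjusted p of Fasn was 0.0498. Among 20 genes of fatty acid oxidation and ketone synthesis, with a log2 median of 0.10, 1 rose, Acot1, an acyl-CoA thioesterase (log2 2.86, adjusted p = 0.0214), whose call was lost without CD Vec liver 1, 2 or 3 or LPD c-MET/β-catenin liver 2 (adjusted p from 0.0591 to 0.0843).

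Cholesterol synthesis had opposite medians in its parts. Of 21 genes 1 fell and 0 rose net (2.06% and 2.65% of all genes), with a log2 median of −0.74. The median diet part was 0.76 and the median oncogene part −1.60. Dhcr7, the last enzyme of cholesterol synthesis, measured 104, 50.4 and 126 CPM in CD Vec and 40.8, 44.2 and 30.1 CPM in LPD c-MET/β-catenin (log2 fold change −1.28, SE 0.29, adjusted p = 0.0291), while LPD Vec held 124, 147 and 123 CPM. Msmo1, a sterol methyl oxidase, had a net difference of log2 −1.14, adjusted p = 0.0535. The count on this list moved with CD Vec liver 2: without it 9 genes fell, beside 342 of the 14275 genes tested in that fit. Dhcr7 in turn lost its call without CD Vec liver 1 or 3 or LPD c-MET/β-catenin liver 1, 2 or 3 (adjusted p from 0.0687 to 0.0988). Against CD c-MET/β-catenin, 17 of the 21 were lower in LPD c-MET/β-catenin (11.3% of all genes).

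In bile acid synthesis and transport 2 of 15 rose and 3 fell (2.65% and 2.06% of all genes). Cyp8b1, the sterol 12α-hydroxylase (log2 −1.09, adjusted p = 0.0323), Cyp27a1, the sterol 27-hydroxylase (log2 −0.66, adjusted p = 0.0215), and Slc27a5, which activates bile acids (log2 −0.84, adjusted p = 0.0169), were lower. Abcc4, a basolateral exporter (log2 2.82, adjusted p = 0.0187), and Abcb4, the phospholipid floppase of the canaliculus (log2 0.47, adjusted p = 0.0460), were higher. Each of the 5 lost its call without some library. The call of Cyp8b1 (adjusted p from 0.0776 to 0.157) was not made without CD Vec liver 2 or 3 or LPD c-MET/β-catenin liver 2 or 3. The call of Cyp27a1 (adjusted p from 0.0708 to 0.0997) was not made without CD Vec liver 3 or LPD c-MET/β-catenin liver 1 or 2. The call of Slc27a5 (adjusted p from 0.0504 to 0.0942) was not made without CD Vec liver 3 or LPD c-MET/β-catenin liver 2. The call of Abcc4 (adjusted p from 0.0563 to 0.0731) was not made without CD Vec liver 2 or LPD c-MET/β-catenin liver 2. That of Abcb4 was lost in 10 of the 12. None of 18 genes of glucose and glycogen metabolism and none of 10 of the growth hormone axis was called.

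Hepatocyte identity factors were not called, whereas some fetal liver genes were. None of 15 transcription factors of the hepatocyte passed, with a log2 median of −0.18. Of 16 oncofetal and progenitor genes 5 rose and 0 fell (2.65% and 2.06% of all genes), with a log2 median of 1.56, or 1.60 with the 2 low-count members at the ratio of their counts. With the run term, and within the run that holds 1 CD Vec library, 0 of them were called. Besides Dlk1 these were Prom1, a progenitor surface protein (log2 3.69, adjusted p = 0.00159), Golm1, a Golgi protein (log2 2.10, adjusted p = 0.0101), Gpc3, glypican-3 (log2 3.23, adjusted p = 0.0303), and Afp, α-fetoprotein. Afp measured 5.09, 3.24 and 17.6 CPM in CD Vec and 115, 56.5 and 20.3 CPM in LPD c-MET/β-catenin (log2 fold change 2.88, SE 0.72, adjusted p = 0.0468), so the lowest LPD c-MET/β-catenin liver was close to the highest CD Vec liver. CD c-MET/β-catenin held 370.2, 671 and 245 CPM. H19, an imprinted fetal RNA, measured 0.968, 0.455 and 0.469 CPM in CD Vec and 3.66, 3.44 and 0.787 CPM in LPD c-MET/β-catenin and did not pass (log2 2.04, adjusted p = 0.0978), while CD c-MET/β-catenin held 75, 93.6 and 134 CPM. Prom1 and Golm1 were called whichever library was left out, the call of Gpc3 was lost without CD Vec liver 1 or 2 or LPD c-MET/β-catenin liver 2 (adjusted p from 0.0922 to 0.116) and that of Afp in 10 of the 12.

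Sex-biased liver genes differed by list. None of 11 male-biased genes was called, with a log2 median of −0.07, against a median of −2.48 for the oncogenes on CD. Of 11 female-biased genes 3 rose and 0 fell (2.65% and 2.06% of all genes), with a log2 median of 2.77, or 2.86 when the 2 members with at most 3 counts in every CD Vec library are set at the ratio of their summed counts. The raised members were Cyp3a44, a cytochrome P450 of a family of near copies (log2 2.96, adjusted p = 0.0100), A1bg, α-1-B glycoprotein (log2 4.20, adjusted p = 0.0236), and Hao2, a hydroxyacid oxidase (log2 3.48, adjusted p = 0.0225). Cyp3a44 kept the call whichever library was left out. The call of A1bg (adjusted p from 0.0768 to 0.0822) was not made without CD Vec liver 1 or 2 or LPD c-MET/β-catenin liver 2. The call of Hao2 (adjusted p from 0.0752 to 0.0942) was not made without CD Vec liver 2 or 3 or LPD c-MET/β-catenin liver 2.

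Stress and inflammatory lists held few calls, beside 2.65% of all genes higher and 2.06% lower. Of 18 acute phase genes 1 rose, Saa3, a serum amyloid (log2 1.39, adjusted p = 0.0291), and 2 fell, Orm2 (log2 −1.53, adjusted p = 0.0221) and Orm3, orosomucoids. Orm3 measured 3.92, 6.65 and 2.86 CPM in CD Vec and 0.195, 0.175 and 0.0875 CPM in LPD c-MET/β-catenin (log2 fold change −4.82, SE 0.59, adjusted p = 0.00159), with parts of log2 −4.41 for diet and −0.41 for the oncogenes, and shares sequence with its paralogs. The call of Saa3 (adjusted p from 0.0788 to 0.102) was not made without CD Vec liver 1 or 3 or LPD c-MET/β-catenin liver 2 or 3. The call of Orm2 (adjusted p from 0.0592 to 0.106) was not made without CD Vec liver 2 or LPD c-MET/β-catenin liver 2 or 3. In the interferon list 1 of 16 rose, Usp18, which removes ISG15 from proteins. Usp18 measured 2.55, 2.84 and 3.28 CPM in CD Vec and 16.4, 14.9 and 10.3 CPM in LPD c-MET/β-catenin (log2 fold change 2.26, SE 0.26, adjusted p = 0.00157) and was called in every fit without a library and with the run term (adjusted p = 0.0265). Among 13 metallothionein and iron genes 1 fell, Hamp2. Of 16 clock genes 1 fell, Per2, a clock repressor, with 74.5, 133 and 62.5 CPM in CD Vec and 31.5, 28.1 and 24.1 CPM in LPD c-MET/β-catenin (log2 fold change −1.69, SE 0.38, adjusted p = 0.0284), a call lost without CD Vec liver 1 or 2 or LPD c-MET/β-catenin liver 1, 2 or 3 (adjusted p from 0.0526 to 0.115). The clock list had a log2 median of −0.57, with 8 members not overlapping downwards (11.3% of all genes) and 3 upwards (11.8%).

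The unfolded protein response depended on a single library. None of 12 genes was called (2.65% of all genes rose and 2.06% fell) and the log2 median was −0.31. CD Vec liver 2 held the highest levels: Creld2, a chaperone-like secreted protein, measured 26.8, 472 and 38.1 CPM in CD Vec and 85.9, 105 and 83.5 CPM in LPD c-MET/β-catenin (log2 fold change −0.97, SE 0.80, adjusted p = 0.592), and Hspa5, the chaperone BiP, 827, 3432 and 897 CPM in CD Vec and 1221, 1268 and 1102 CPM in LPD c-MET/β-catenin (log2 fold change −0.52, SE 0.45, adjusted p = 0.614). Without that library 5 of the 12 were called higher in LPD c-MET/β-catenin, beside 243 of the 14275 genes tested in that fit, and the log2 median was 0.48. Creld2 was among them, at 1.48 (adjusted p = 0.00274).

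Few markers of other liver cells were called, beside 2.65% of all genes higher and 2.06% lower. Of 14 macrophage markers 2 rose, C1qa (log2 0.91, adjusted p = 0.0367) and C1qc (log2 0.99, adjusted p = 0.0304), both chains of complement C1q, with a log2 median of 0.86 over the list. The summed list took 148 to 318 CPM in CD Vec and 298 to 529.7 CPM in LPD c-MET/β-catenin, which overlapped, and neither gene was called without CD Vec liver 1 or 2 or LPD c-MET/β-catenin liver 2 or 3 (adjusted p from 0.0760 to 0.129). C1qa also lost its call without any 1 of the LPD Vec livers (adjusted p from 0.0548 to 0.0615) and C1qc without LPD Vec liver 2 (adjusted p = 0.0534). Of 9 T and NK cell markers 1 rose, Cd8a, with 6 counts in CD Vec against 59, a ratio of 7.72 with an exact 95% counting interval of 3.35 to 21.9, in a list with a log2 median of 1.01 and all 9 fitted differences above 0. Its sum was 3.97 to 6.04 CPM in CD Vec and 6.84 to 10.8 CPM in LPD c-MET/β-catenin, which did not overlap. Cd8a lost its call in 8 of the 12 fits. None of 6 B cell markers passed (sum 3.75 to 14.4 CPM and 10.2 to 19 CPM), and Jchain, of plasma cells, measured 1.63, 1.31 and 3.38 CPM in CD Vec and 3.03, 4.56 and 10.01 CPM in LPD c-MET/β-catenin (log2 1.47, adjusted p = 0.227) beside the increase of Ighg1. None of 12 stellate cell and fibroblast markers (sum 215 to 269 CPM and 179.5 to 278 CPM), 14 endothelial markers (193 to 334 CPM and 259 to 343 CPM), 4 cholangiocyte markers (40.4 to 59.7 CPM and 59.9 to 65.8 CPM) or 2 neutrophil markers (1.65 to 2.71 CPM and 1.47 to 2.67 CPM) passed, and of these sums that of the cholangiocyte markers did not overlap. No marker was at 0 in all 6 libraries, Ly6g of neutrophils and Cftr and Sctr of cholangiocytes had at most 3 counts in each, and the part of these cells in the results above was not tested.

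**Figure D4:**
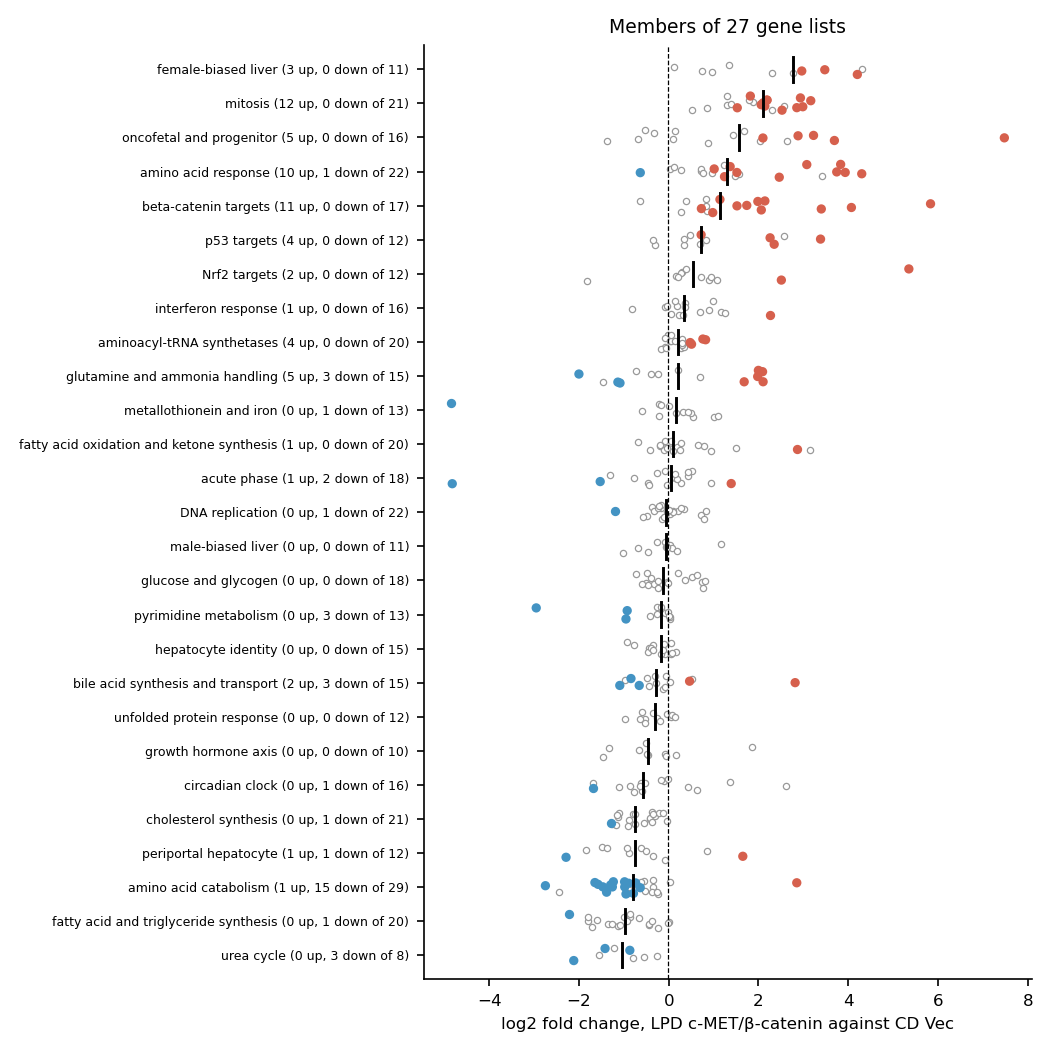
Net log2 fold change (x axis) of the tested members of 27 gene lists, 1 point a gene, red for called higher, blue for called lower and open for not called, with a vertical bar at each list's median. Lists run from a median of 2.77 for female-biased genes at the top to −1.04 for the urea cycle at the foot.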

How the data were processed

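RNA of 12 mouse livers, 3 in each of 4 groups of the labels, had been sequenced; the labels name an rRNA depletion kit and the study's methods mRNA selection. The authors aligned reads to mm10 with HISAT2 and deposited whole-number counts per Entrez gene from featureCounts, not normalised; versions, strand setting and the treatment of multiply mapped reads are not given in the sources used here. Symbols were matched to 93.1% of 27179 genes through RefSeq GRCm38.p6 and GENCODE M21. The members, lists and tests were chosen with earlier results of these data known. After filterByExpr and TMM scaling, all 12 libraries were fitted with 1 coefficient a group in edgeR 4.0.16 (R 4.3.3, limma 3.58.1), with the quasi-likelihood test and Benjamini-Hochberg adjustment over 13947 genes at 0.05. All adjusted p-values come from this test unless another is named; DESeq2 1.42.0 served as an alternative. The labels number the replicates and the study describes 3 mice a group, so p-values measure the spread between livers (biological coefficient of variation 23.2%). Distances used log2 CPM with a prior count of 2.

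Genes named by size were the 15 in each direction with the largest log2 fold change among called genes with a mean of at least 5 CPM in the higher group, no overlap between the 2 groups and a full symbol, and the 5 in each direction with the largest diet part. Other named genes are members of 27 lists and 8 marker lists, except Met and Ctnnb1; 1 list member is not reported here. Genes with at most 3 counts in every CD Vec library are given as the ratio of summed counts, with an exact interval at 95%. On simulated counts of this comparison with 200 of 13947 genes changed 4-fold, 84% of these were called, 4% of the calls were unchanged genes, and a comparison without changes gave 0 calls. The simulated counts held no smaller changes, no runs and no outlying library, so these rates need not hold for the real data.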

Additional observations from a re-analysis of the deposited data

How the results depend on the processing

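The number of genes called, 657, was 646 with DESeq2's size factors in edgeR, 559 without the filter on low counts, 1047 with total counts only, 1241 in DESeq2, 330 with only the 2 groups compared in the fit, 51 with the run of dataset numbers as a term and 434 with the added demand of 2-fold. Within 1 run of dataset numbers, 3 libraries against 1, an alternative chosen after seeing the data in which the lone CD Vec library is assumed to vary like the others, it was 352. Leaving out each library in turn gave 160 to 879, the lowest without LPD c-MET/β-catenin replicate 2, and 322 without CD Vec replicate 1; the totals without any other library were within 1.5 times the full one, whereas the 287 lower genes alone ranged from 44, again without LPD c-MET/β-catenin replicate 2, to 431. The median distance of 0.782 between CD Vec and LPD c-MET/β-catenin was 0.860 with a prior count of 0.5 and 0.817 with total counts.

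The replicate numbers do not pair the samples: libraries of the same number had correlations of −0.156, −0.155 and −0.183 between their deviations from the group means. With the replicate number as a block 475 genes were called, 455 of them among the 657. No library of one group correlated best with its own number in the other.

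Of 134 named genes, 117 were called, and all 117 kept their direction in every alternative run. These fits reuse the same libraries, so kept directions are not separate support. Among these 117, 117 were called in DESeq2, 108 with total counts only, 86 in the fit of the 2 groups, 102 under the block, 52 within 1 run and 19 with the run term. Of the genes not called, 3 turned: Met to 0.022 with total counts only, Creld2 to 0.16 with the run term, 1.25 within 1 run and, over the fits without a library, −1.47 to 1.48, the highest without CD Vec replicate 2, and Hspa5 to 0.40 within 1 run and −0.85 to 0.46 without a library, again highest without CD Vec replicate 2. The cause was not tested. With 3 samples a group and 19476209 counts in the smallest library, single genes with small or variable differences may have been missed, which was not tested. In edgeR's quasi-likelihood test 2637 genes had an unadjusted p under 0.05.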
